A study of Mus musculus with 18 samples.

Results

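The authors deposited 40833 peaks of H3K36me2 found in both untreated libraries of E14 mouse embryonic stem cells, and 2349 of them, all autosomal and 2000 bp or longer, are described here because they held no sequence of an H3K27 peak. These regions were chosen as H3K36me2 peaks on the 19 autosomes, 2000 bp or longer, with 0 bp covered by the replicated peaks of the 3 H3K27 marks. They made up 5.89% of the 39873 autosomal H3K36me2 peaks of that length and covered 12.6 Mb, against 773 Mb in the other 37524. The rule used the untreated H3K36me2 and H3K27 libraries, so values of those libraries are descriptions here. The H3K36me3 libraries, the annotation and the libraries of treated cells were not used by it.

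All cells were E14, an established male mouse embryonic stem cell line, grown in medium with LIF and inhibitors of MEK and GSK3 (2i), which keeps the cells undifferentiated, and with isotope-labelled arginine and lysine. Chromatin immunoprecipitation was followed by sequencing in 18 libraries, 9 groups of 2. Untreated cells gave 10 libraries, 2 each for H3K36me3, H3K36me2 and the mono-, di- and trimethylated forms of H3K27. The remaining 8 were for H3K36me2 and H3K27me3 after 7 days with 10 µM EPZ-6438, a small-molecule blocker of EZH2, the main H3K27 methyltransferase, or with the same volume of the solvent DMSO. These held Drosophila S2 chromatin at 0.05% as a spike-in. The labels do not say whether the 2 replicates of a group were separate cultures, so the p-values measure the spread between these libraries, which may be technical. With 2 libraries against 2, the smallest 2-sided exact permutation p is 0.33. H3K36me3 over the gene bodies of all 8 embryonic stem cell markers was above the library mean in both libraries, at 3.21 to 7.66 times it, and the neural, mesendoderm, trophoblast and fibroblast markers ranged from 0.476 to 5.28 times it.

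Methylation of lysine 36 and of lysine 27 on histone H3 is laid down by separate enzymes. NSD1 and related enzymes make H3K36me2, which lies broadly over genes and between them, and SETD2, travelling with elongating RNA polymerase II, makes H3K36me3 in transcribed gene bodies. PRC2, whose catalytic subunit is EZH2 or EZH1, makes all 3 degrees of H3K27 methylation. Its trimethylated form marks Polycomb-repressed genes, the dimethylated form is spread over most of the genome in embryonic stem cells, and the monomethylated form is frequent in transcribed genes. Lysine 36 methylation on the same histone tail hinders PRC2, and the stretches where H3K36me2 meets little H3K27 methylation are of interest for that reason.

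Most of the regions lay away from start sites, but 138 held an annotated one, and 6 of their promoters are printed here. The first 4 belong to regions described in detail further on: the pluripotency factor Klf4, and 3 genes in regions with the least H3K27me2, namely Eif2s2 (a translation initiation factor subunit), Cobl (an actin nucleator) and Zfp57 (a zinc finger protein that protects imprinted methylation). Hcrtr2 (an orexin receptor) and Tmem45a (a membrane protein) are shown for contrast, as promoters in regions with H3K27me2 above the library mean. The 6 were chosen after their values were seen. Each line gives the 250 bases before the annotated start, 5′ to 3′ on the gene's strand, from RefSeq on GRCm38 (mm10), with CG dinucleotides in capitals. They lie at chr4:55532476-55532725 (Klf4, minus strand), chr2:154892907-154893156 (Eif2s2, minus), chr11:12464961-12465210 (Cobl, minus), chr17:37002275-37002524 (Zfp57, plus), chr9:76323624-76323873 (Hcrtr2, minus) and chr16:56886164-56886413 (Tmem45a, minus).
Klf4: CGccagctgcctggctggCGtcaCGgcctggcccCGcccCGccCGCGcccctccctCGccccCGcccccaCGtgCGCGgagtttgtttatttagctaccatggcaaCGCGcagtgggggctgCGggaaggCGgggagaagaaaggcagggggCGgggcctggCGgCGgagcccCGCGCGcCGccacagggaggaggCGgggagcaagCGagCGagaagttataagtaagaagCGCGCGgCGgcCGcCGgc
Eif2s2: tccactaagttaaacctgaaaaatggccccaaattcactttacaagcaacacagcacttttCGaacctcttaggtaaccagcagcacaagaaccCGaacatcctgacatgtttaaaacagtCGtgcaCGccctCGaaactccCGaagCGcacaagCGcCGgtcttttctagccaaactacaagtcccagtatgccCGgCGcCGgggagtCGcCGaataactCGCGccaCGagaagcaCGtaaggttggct
Cobl: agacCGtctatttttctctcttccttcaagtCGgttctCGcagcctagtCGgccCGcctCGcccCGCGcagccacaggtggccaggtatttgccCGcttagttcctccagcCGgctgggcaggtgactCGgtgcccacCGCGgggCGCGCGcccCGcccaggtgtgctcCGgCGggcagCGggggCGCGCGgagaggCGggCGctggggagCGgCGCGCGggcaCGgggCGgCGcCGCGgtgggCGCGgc
Zfp57: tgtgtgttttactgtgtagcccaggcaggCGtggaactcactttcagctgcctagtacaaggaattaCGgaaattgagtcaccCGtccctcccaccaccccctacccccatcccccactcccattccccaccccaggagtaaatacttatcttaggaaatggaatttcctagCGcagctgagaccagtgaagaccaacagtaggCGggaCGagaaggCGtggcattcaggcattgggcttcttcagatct
Hcrtr2: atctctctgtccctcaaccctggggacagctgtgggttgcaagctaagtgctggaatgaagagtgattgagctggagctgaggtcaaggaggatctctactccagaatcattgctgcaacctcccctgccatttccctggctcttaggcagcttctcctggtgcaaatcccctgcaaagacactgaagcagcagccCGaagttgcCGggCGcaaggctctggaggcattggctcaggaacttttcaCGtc
Tmem45a: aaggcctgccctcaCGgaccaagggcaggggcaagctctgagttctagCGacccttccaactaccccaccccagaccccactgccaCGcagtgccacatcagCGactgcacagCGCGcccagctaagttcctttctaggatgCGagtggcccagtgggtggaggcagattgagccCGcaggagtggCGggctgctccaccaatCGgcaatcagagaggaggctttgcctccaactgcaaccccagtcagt

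The 6 promoters span a wide range of CpG content. Cobl has 36 CG dinucleotides in 250 bases at 75.2% GC, Klf4 32 at 74% and Eif2s2 18 at 51.6%. Tmem45a has 10, Zfp57 7 and Hcrtr2 4. The regions around Klf4 and Hcrtr2 both carried H3K36me2, at 1.60 and 1.73 times the library mean in the 2 DMSO libraries over Klf4 and 1.77 and 1.73 times over Hcrtr2. CpG-rich and CpG-poor promoters therefore both occur among the regions. Over all 161 promoters that lie in a region, for 146 genes, 24.2% were CpG-rich (GC of at least 50% and observed over expected CpG of at least 0.6), against 34.4% of the 17553 promoters in other H3K36me2 peaks and 34.2% of all 31223. The median GC content was 49% in the regions and 55% in the other peaks. Short letter matches, sought on both strands in the window from 250 bases before to 50 after the start, were counted for 8 motifs, whose matches may overlap. GGGCGG occurred in 28.6% of promoters in the regions and in 36.1% of all promoters, CCGGAAG in 3.11% and 9.03%, ATGCAAAT in 3.11% and 1.76%, CANNTG in 77.6% and 72.1%, CCATNTT in 15.5% and 16%, and TGANTCA in 8.07% and 7.83%. TCAAGGTCA and the palindromic NRF1 motif each occurred in 0.621% (1 promoter), against 0.404% and 0.967% of all. A match is a description of the letters and not of binding.

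The regions were short peaks with low scores. Their median length was 4500 bp (quartiles 3500 and 6500, longest 35000), against 10500 bp for the other peaks. The authors' deposited score per peak had a median of 57.7, against 148, with lengths not matched. They made up 17.2% of the peaks of 2 to under 5 kb, 7.74% of those of 5 to under 10 kb and 0.892% of those of 10 kb or longer. A short peak has fewer bases in which to meet an H3K27 peak, so comparisons with other peaks are also given within length classes below. The class of 10 kb or longer has no upper limit, and other peaks reached 615000 bp. Lengths are therefore not matched in that class, and differences there may include length.

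H3K27 peaks were seldom far off. The median distance to the nearest one was 5500 bp, 12 regions abutted one, 1039 lay at 500 to under 5000 bp and 391 at 20 kb or more, with a maximum of 621500 bp. The nearest was an H3K27me1 peak for 984 regions, an H3K27me2 peak for 910 and an H3K27me3 peak for 654, with ties counted for each mark. The regions also stood more alone among H3K36me2 peaks: another such peak lay within 5 kb of 48.2%, against 66.4% of the other peaks. By chromosome, their share of the H3K36me2 peaks ran from 3.55% on chromosome 7 to 8.98% on chromosome 14.

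At the edges of the rule, the 148 regions of exactly 2000 bp had H3K36me2 at 1.94 and 1.83 times the library mean in the 2 DMSO libraries. The 128 peaks of 1500 bp without H3K27 peak sequence, just outside, were at 2.22 and 2.14. The 79 peaks with 500 bp of H3K27 peak sequence, also just outside, were at 1.40 and 1.32. The regions at the length limit lay between these 2 sets.

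Freedom from H3K27 peaks was not freedom from H3K27 methylation. Levels are given as the mean number of reads per 1 kb window of a region divided by the mean over all autosomal windows of that library. In untreated cells, H3K27me2 over the regions was 1.25 and 1.22 times the library mean in the 2 libraries, and it was above the mean in 89.0% and 87.4% of regions. The other H3K36me2 peaks were at 1.73 and 1.61, and windows in no peak of H3K36me2 or an H3K27 mark at 0.534 and 0.589. In the regions H3K27me2 was thus between the other peaks and the peak-free genome. Within a library the regions had 0.742 of the other peaks' H3K27me2 over all lengths. The ratio was 0.889 at 2 to under 5 kb, 0.831 at 5 to under 10 kb and 0.655 at 10 kb or longer.

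The other 2 degrees of H3K27 methylation were also intermediate. H3K27me1 was 1.02 and 1.08 times the library mean in the regions, 1.42 and 1.36 in the other peaks and 0.567 and 0.635 in windows without a peak. H3K27me3 was 0.633 and 0.596 in the regions, 1.81 and 1.67 in the other peaks and 0.337 and 0.408 outside peaks. H3K27me3 was the only one of the 3 below the library mean in both libraries. In the same length classes, shortest first, the regions had 0.718, 0.726 and 0.689 of the other peaks' H3K27me1. For H3K27me3 these ratios were 0.437, 0.386 and 0.300. H3K36me2 itself was 1.63 and 1.61 in the regions and 2.32 and 2.15 in the other peaks. Within a library the regions had 0.724 of the other peaks' H3K36me2 over all lengths. The ratio was 0.925 at 2 to under 5 kb, 0.878 at 5 to under 10 kb and 0.657 at 10 kb or longer. All of these marks took part in the choice of the regions, so no test is given.

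**Figure D1:**
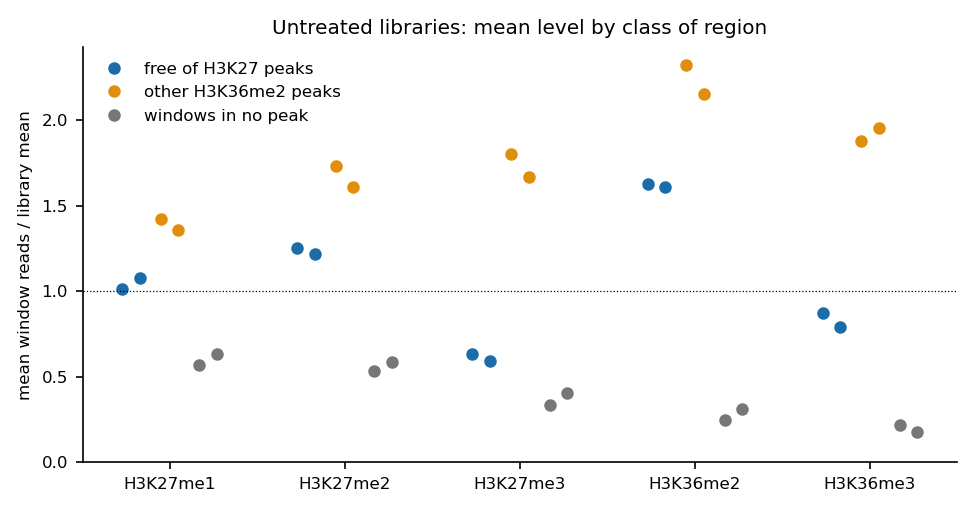
Mean level of 5 histone marks in untreated cells (y axis, mean window reads divided by the library mean) over the 2349 H3K36me2 peaks free of H3K27 peaks, the other H3K36me2 peaks and windows in no peak. Each point is 1 library and the dotted line is the library mean. The regions free of H3K27 peaks lie between the other 2 classes for every mark, and their H3K27me2 (1.25 and 1.22) lies above the library mean.

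H3K36me3, the transcription-coupled mark that the rule did not use, was low in the regions. It was 0.873 and 0.790 times the library mean in the 2 libraries, against 1.88 and 1.95 in the other H3K36me2 peaks and 0.221 and 0.18 in windows without a peak. Both libraries were below the mean over the regions and well above it over the other peaks. Within a library, the regions had 0.435 ± 0.043 (SD, n = 2) of the level of the other peaks, and 0.385 ± 0.029 of that of other peaks without H3K27me3 peak sequence. No test of this ratio was made. H3K27me1 was also lower, at 0.608 ± 0.062 of that of other peaks without H3K27me3 peak sequence. The rule left out peaks that touch H3K27me1 peaks, a mark frequent in transcribed genes. The choice may therefore bear on H3K36me3 and on the share in genes, which was not tested.

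The difference varied with length and place. The ratio was 0.607 ± 0.042 among peaks of 2 to under 5 kb, 0.534 ± 0.048 at 5 to under 10 kb and 0.422 ± 0.046 at 10 kb or longer. It was 0.434 ± 0.043 among peaks overlapping a protein-coding gene and 0.652 ± 0.047 among those overlapping no annotated gene. In each of these classes both libraries had less H3K36me3 in the regions. Being in a gene also went with a smaller gain: H3K36me3 in protein-coding genes was 1.28 ± 0.01 times that outside annotated genes among the regions, and 1.92 ± 0.07 times among the other peaks. Single regions varied widely, and 29.9% and 24.5% of them were above the library mean in the 2 libraries.

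The extremes show the range. The highest H3K36me3 was in Zfp951 (a zinc finger gene) at 4.45 and 4.48 times the library mean, followed by the region in Zic5, a neural transcription factor, at 4.34 and 4.05. Regions in Gcnt1 (a glycosyltransferase) were at 3.35 and 4.31, in Exoc6b (an exocyst subunit) at 3.38 and 3.63, and in Pde4d (a cAMP phosphodiesterase) at 2.66 and 4.32. All 5 lay in protein-coding genes. Of the 5 lowest, only 1 did: the region in Atp6v0d2, a subunit of the vacuolar proton pump, at 0.22 and 0.29. The next, chr10:14281001-14284500, lay 118083 bp from Adgrg6 and was at 0.29 and 0.27. The other 3 lay 42661, 121209 and 208472 bp from the nearest protein-coding genes, Nsmaf, Naa11 and Sugct.

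Around their centres the regions had more of all 5 marks than at 5 kb. H3K36me2 in the DMSO libraries was 1.5 and 1.43 times the library mean at the centre, 0.819 and 0.764 at 5 kb and 0.956 and 0.923 at 25 kb. The level at 5 kb was below that at 25 kb in both libraries. H3K36me3 had the same shape, with 0.894 and 0.816 at the centre, 0.616 and 0.522 at 5 kb and 0.806 and 0.734 at 25 kb. So had H3K27me2, at 1.31 and 1.25, 0.865 and 0.899, and 0.985 and 0.997. No input library was used here.

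**Figure D2:**
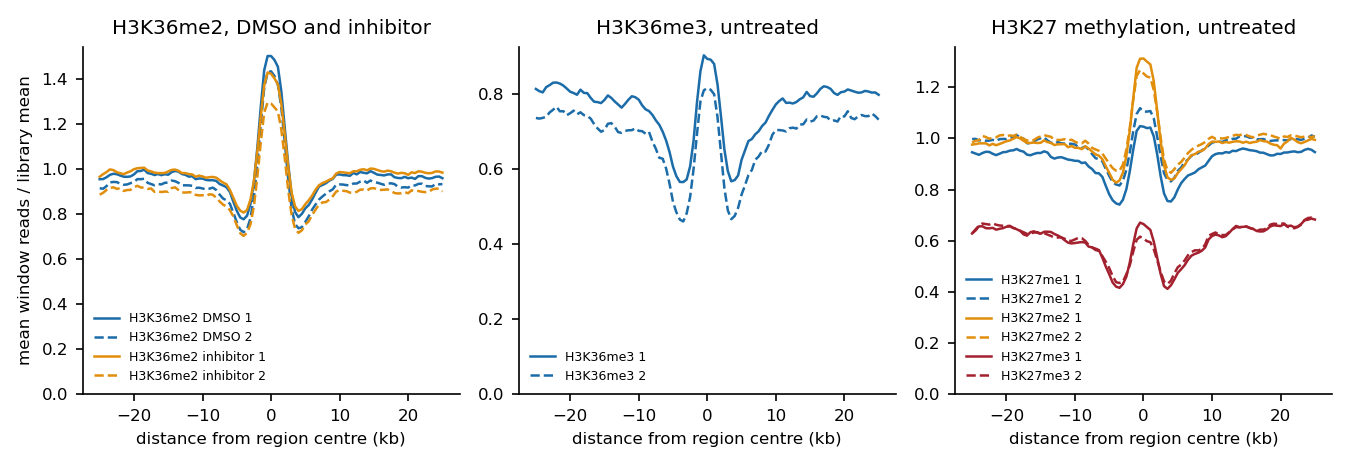
Mean level of each mark (y axis, mean window reads divided by the library mean) against distance from the centre of the 2349 regions (x axis, kb), 1 line per library. Every mark is higher at the centre than a few kb out, and H3K36me2 after DMSO falls from 1.5 and 1.43 at the centre to 0.819 and 0.764 at 5 kb.

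The regions were less often in genes than other H3K36me2 peaks. Of the 2349, 976 overlapped a protein-coding gene (41.5%, Wilson 95% interval 39.6 to 43.6%, counting error only), 333 overlapped another annotated gene alone (14.2%) and 1040 overlapped no annotated gene (44.3%). In the other peaks these shares were 58.8%, 14.6% and 26.6%. Of all 500 bp windows of the autosomes, 40.3% overlapped a protein-coding gene, a share that is not matched to the regions in length.

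Short peaks overlap fewer genes. Within length classes the gap kept its direction, and it was narrower in the 2 shorter classes but not at 10 kb or longer. The shares in protein-coding genes were 37.5% for the regions and 41.0% for the others at 2 to under 5 kb, 44.7% and 51.5% at 5 to under 10 kb, and 50.8% and 68.2% at 10 kb or longer. In other peaks without H3K27me3 peak sequence they were 39.7%, 57.3% and 72.7%. Over 100 kb from any protein-coding gene lay 539 regions (22.9%), against 11.6% of the other peaks. These shares were 24.5% and 19.1% at 2 to under 5 kb, 21.6% and 14.9% at 5 to under 10 kb, and 20.4% and 7.62% at 10 kb or longer. Annotated start sites lay in 6.16% of 2239 regions and 24.7% of the other peaks, with chromosome 18 left out of both. By length, the shares were 3.69% and 5.99%, 7.94% and 11.1%, and 12.9% and 37.9%. In other peaks without H3K27me3 peak sequence they were 3.84%, 10.2% and 25.6%, so in the shortest class the regions were close to that class.

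**Figure D3:**
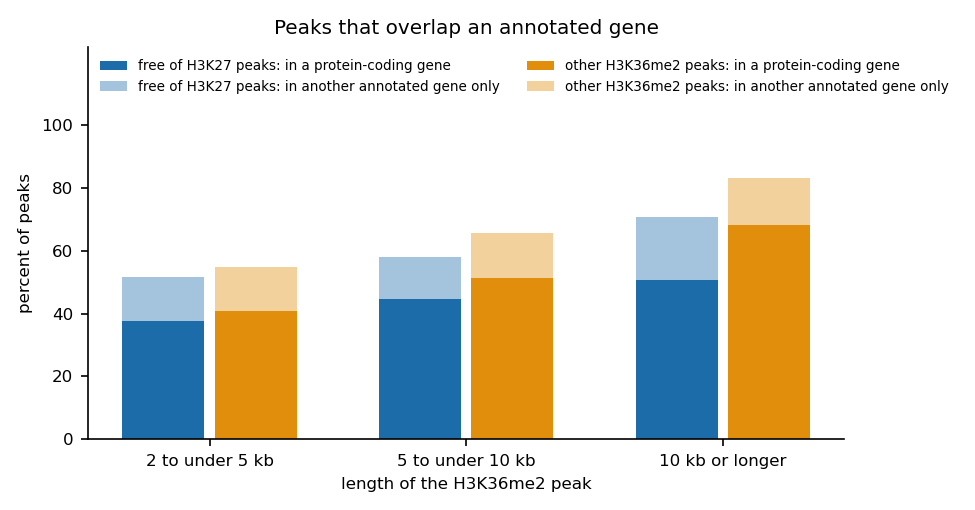
Percent of H3K36me2 peaks (y axis) overlapping a protein-coding gene or only another annotated gene, by length class (x axis), for the regions free of H3K27 peaks and for the other peaks. The regions overlap protein-coding genes less often in each class, with the widest gap at 10 kb or longer (50.8% against 68.2%). That class has no upper limit, so lengths in it are not matched.

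Where the regions fell in genes, the genes were long. The 665 protein-coding genes that held a region had a median length of 135875 bp, against 17491 bp for all, and 493 regions lay in genes of 200 kb or longer. Rbfox1, a neuronal splicing regulator 1527688 bp long, held 14. Oxr1 (oxidation resistance) held 10, Adamtsl1 (an extracellular matrix protein) 9, Trpm3 (a cation channel) and Immp2l (a mitochondrial protease subunit) 8 each, and Ctnnd2 (a catenin of neurons) 7. Another 6 genes held 6 each, among them the cell adhesion gene Cdh2 and the axon guidance receptor gene Robo1. A long gene has more room for any peak, and these counts are not corrected for length.

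Genes with a known part in these cells or in histone methylation were mostly without a region. Of 15 pluripotency genes, 1 held a region (Klf4), and 9 held another H3K36me2 peak. None of the 12 H3K36 methyltransferases and demethylases and none of the 11 PRC2 subunits held one, while 11 and 7 held another H3K36me2 peak, as did 69.5% of all protein-coding genes. The counts were also 0 of 18 housekeeping genes, 0 of 20 splicing genes, 0 of 26 Polycomb-repressed developmental regulators and 0 of 73 ribosomal protein genes. Of 1100 olfactory receptor genes, 2 held a region (Olfr981 and Olfr901). Over all 20665 protein-coding genes the share was 3.22%, so counts of 0 in lists this short are near what the whole set gives.

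Proximity added a few names. Within 50 kb of a region lay 2 of the 15 pluripotency genes, Klf4 and Zfp42 (the stem cell marker REX1). Of the histone methylation lists, 1 of 12 H3K36 enzyme genes, Setmar, and 2 of 11 PRC2 genes, Ezh2 and Phf1, were that close. The share over all protein-coding genes was 9.24%.

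The longest regions were intergenic or in non-coding genes in 4 of 5 cases. The longest, chr7:70767501-70802500, is 35000 bp in the non-coding gene Gm39032, 182540 bp from a protein-coding gene. Its H3K36me2 was 1.3 and 1.2 times the library mean after DMSO and 1.24 and 1.07 after the inhibitor. One of the next longest, chr8:43321501-43344500 (23000 bp, as is the one in Gm3945), lies 14492 bp from Zfp42 and had 1.68 and 1.49 after DMSO and 1.55 and 1.38 after the inhibitor. Its untreated H3K27me3 was low, at 0.17 and 0.20. The other 3 overlap Gm3945 on chromosome 14, the protein-coding transcription factor gene Zfp521 on chromosome 18 and 2 non-coding genes on chromosome 13.

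A small class of regions, set apart after the values were seen, had little H3K27me2. In 22 of the 2349 (0.937%), H3K27me2 was under 0.5 times the library mean in both untreated libraries, against 235 (0.626%) of the other peaks. The regions outside that limit with the lowest mean over both libraries lay in Gm28729 (0.238 and 0.543) and in Dst (0.509 and 0.335). Under 0.25 times the mean were 13 regions (0.553%) and 22 of the other peaks (0.0586%). In the 22, the median H3K27me2 was 0.176 and 0.22 times the library mean and the median H3K27me3 0.0449 and 0.0331. H3K36me2 was as high as elsewhere, with medians of 1.46 and 1.44 after DMSO, against 1.46 and 1.39 in the other 2327 regions.

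These 22 lay in or near genes. None was over 100 kb from a protein-coding gene, and 12 (54.5%) overlapped one, against 41.4% of the rest. With at least 50% of the region required to overlap, the shares were 36.4% and 38.6%. Start sites lay in 8 of 22 (36.4%), against 5.86% of the rest. Of the 235 other peaks under the same limit, 73.6% overlapped a protein-coding gene and 24.0% held a start site. The lowest H3K27me2 was at chr9:78369001-78374500, 802 bp from Dppa5a, a gene of early pluripotent cells, at 0.08 and 0.07 times the library mean. A pair on chromosome 7, chr7:3208001-3215500 and chr7:3194001-3206000, lay 3126 and 12626 bp from Mir290a, the start of a microRNA cluster abundant in these cells. The first had 0.06 and 0.10 and the second 0.15 and 0.23. Another, chr4:55478501-55483000, lay 44137 bp from Klf4 and had 0.21 and 0.08.

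More of the 22 overlapped genes. They included Cobl (0.11 and 0.09 times the library mean), Morc1, a germline silencing gene (0.16 and 0.12), Eif2s2 (0.09 and 0.22), Zfp57 (0.11 and 0.22) and Ino80d, a chromatin remodeller subunit (0.21 and 0.20). A region of 15 kb at chr13:23501501-23516500, over the transfer RNA genes n-TRtcg3 and n-TWcca4, had 0.28 and 0.37. A further pair on chromosome 13, chr13:21856501-21862500 and chr13:21850001-21854500, lay 18971 and 12471 bp from the histone gene H4bc24. Transfer RNA and histone genes have near-identical copies, so reads there may be shared between copies. The Klf4 promoter's own region was not of this class, with H3K27me2 at 1.26 and 1.05.

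H3K36me3 was higher in this class than in the rest, though it spread widely. The median of the 22 was 1.30 and 1.21 times the library mean in the 2 libraries, against 0.799 and 0.726 in the other regions. It was above the library mean in 15 and 13 of the 22, and in 29.5% and 24.2% of the others. The region by Dppa5a was at 2.36 and 2.40 and the one in Zfp951 at 4.45 and 4.48, while the transfer RNA region was at 0.57 and 0.56. In the 235 other peaks under the same H3K27me2 limit it was higher still, with medians of 2.38 and 2.30. The class was chosen after its values were seen, so these are descriptions with no test.

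**Figure D4:**
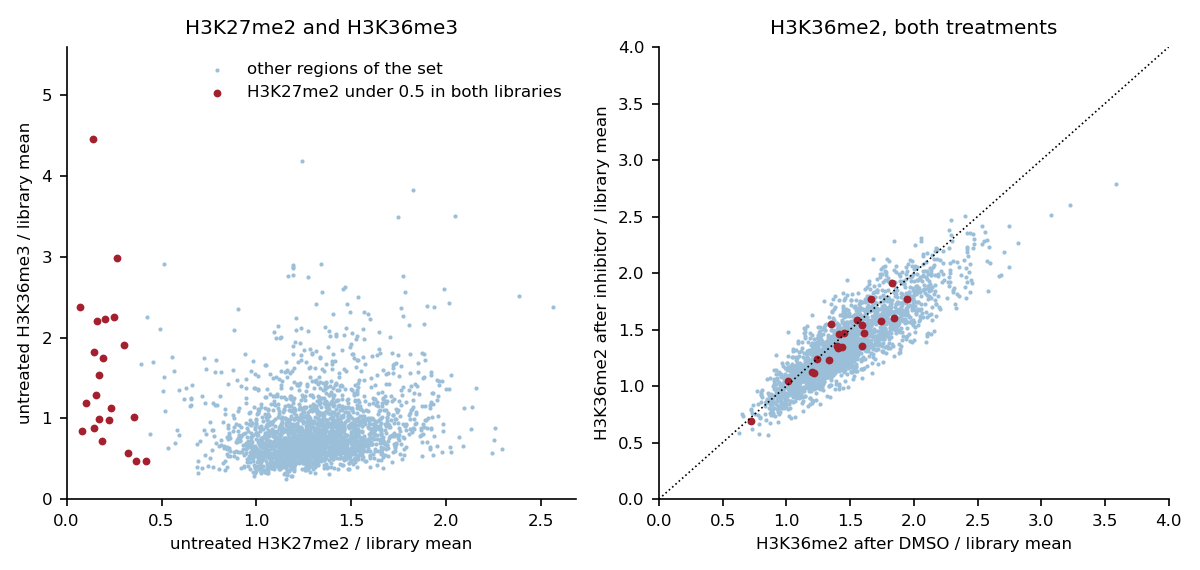
Each point is 1 of the 2349 regions (means of 2 libraries, all axes relative to the library mean), with the 22 of low H3K27me2 in red. On the left, untreated H3K36me3 against untreated H3K27me2: the red points lie left of 0.5, from low to the highest H3K36me3. On the right, H3K36me2 after the inhibitor against DMSO: most points lie near or under the dotted line of equal values, and the red points lie among the rest.

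The inhibitor comparison asks whether H3K36me2 changes when PRC2 activity is blocked. Relative to the library mean, H3K36me2 over the regions was 1.42 and 1.35 in the DMSO libraries and 1.36 and 1.23 in the inhibitor libraries. The groups overlapped, with the lower DMSO library at 1.35 and the higher inhibitor library at 1.36. In bulk chromatin, a lower level in every cell and loss from some cells cannot be told apart. The log2 change was -0.10 (SD within arms 0.08, n = 2 and 2), with single library pairs from -0.21 to 0.01 (exact permutation p = 0.667, 2-sided). H3K36me2 was above the library mean in both libraries in 2066 regions (88.0%) after DMSO and in 1922 (81.8%) after the inhibitor.

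The other peaks moved by a similar amount. They were at 2.13 and 2.11 after DMSO and 1.92 and 1.95 after the inhibitor, a log2 change of -0.13 (exact permutation p = 0.33). Windows in no peak went the other way, from 0.309 and 0.300 to 0.399 and 0.371, a log2 change of 0.34 (exact permutation p = 0.33). The difference itself was tested as the ratio of the regions to the other peaks in each library. That ratio was 0.668 and 0.639 after DMSO and 0.707 and 0.632 after the inhibitor, a log2 change of 0.03 (exact permutation p = 1), and its sign turned to -0.048 without the first inhibitor library. Against other peaks of the same length class it was -0.040 at 2 to under 5 kb and -0.035 at 5 to under 10 kb (exact permutation p = 0.67 for both), and 0.033 at 10 kb or longer (p = 1). The changes of the ratio lie within the spread between libraries. The other peaks as a whole and the windows in no peak had no overlap between the treatments. With 2 libraries against 2, no class could have passed the test.

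On the spike-in scale the libraries of 1 group differed more than the groups. Mean H3K36me2 over the regions was 485 and 303 scaled reads per window after DMSO and 577 and 294 after the inhibitor. The log2 change was 0.10 (SD within arms 0.59, library pairs from -0.72 to 0.93, exact permutation p = 1). It was -0.38 without the first inhibitor library and -0.24 without the second DMSO library, so the direction rests on single libraries. Depth was 63.9 and 38.3 M reads for the DMSO libraries, and 84.6 and 41.8 M for the inhibitor libraries.

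Region by region, limma with Benjamini-Hochberg adjustment over all 40801 peaks tested called 0 at adjusted p under 0.05 on either scale (0%). On the spike-in scale 0 peaks had an unadjusted p under 0.05. Relative to the library mean, 6845 did (16.8%), of which 338 were among the regions, and the lowest adjusted p was 0.293. The median SE of a log2 change was 0.555 on the spike-in scale and 0.109 relative to the library mean. All named regions had the same SE of 0.555 on the spike-in scale. A log2 change of 0.590, in the region nearest to Klhl14, had an unadjusted p of 0.288 by limma there. A change larger than the SE was thus not enough for a call. In simulated data of the same size, the fit relative to the library mean recovered 42 of 200 peaks changed 1.5-fold and 199 of 200 changed 4-fold. The spread between simulated libraries was assumed, and no simulation was made on the spike-in scale. With the library mean replaced by the median of windows in no peak, the same libraries gave 2347 of the 2349 regions lower, as part of 40744 of all peaks. That median is a coarse reference, a whole number of reads: 6 and 3 after DMSO and 13 and 6 after the inhibitor.

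Without a test, both inhibitor libraries were below both DMSO libraries in 800 regions (34.1%) and above in 168 (7.15%). The background over all peaks was 42.6% below and 10.7% above. In other peaks without H3K27me3 peak sequence the shares were 51.3% below and 3.54% above. The regions' shares are under those of all peaks in both directions, but above those of the latter class for higher values.

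The 5 largest rises and falls, among regions at or above the median DMSO level, were chosen by their change and are descriptions. Choosing by a high DMSO level itself favours lower values after the inhibitor. H3K36me2 in Tmtc2, an endoplasmic reticulum protein, went from 1.51 and 1.38 to 1.82 and 1.83 times the library mean (by limma, 0.33 ± 0.09 SE on the log2 scale, adjusted p = 0.293). The other 4 rises lay outside protein-coding genes, nearest to Klhl14, Snrpb2, Gm826 and Sema3c, at up to 2.41 after the inhibitor.

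The largest falls included 2 well-known genes. In Lgr4, a receptor that strengthens Wnt signalling, H3K36me2 went from 1.85 and 1.5 to 1.12 and 1.11 (by limma, -0.56 ± 0.12 SE on the log2 scale, adjusted p = 0.293). In Prdm1, a regulator of germ cell fate, it went from 1.64 and 1.33 to 1.03 and 0.95 (-0.55 ± 0.12 SE on the log2 scale). The largest fall, 6278 bp from Trim27, went from 2.11 and 2.08 to 1.68 and 1.10, with the 2 inhibitor libraries far apart. The other 2 lay nearest to Cetn3 and Cdc42ep3.

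The highest H3K36me2 after DMSO was at chr8:89111501-89113500, 67339 bp from Sall1, a transcription factor gene. It was 3.61 and 3.56 times the library mean after DMSO and 2.77 and 2.79 after the inhibitor (by limma, -0.36 ± 0.08 SE on the log2 scale, adjusted p = 0.293). The next, nearest to Adgrl1, Pabpc4l, Shisal2b and Galnt15, were at 2.67 to 3.35 after DMSO and 1.95 to 2.61 after the inhibitor. All 5 were lower in both inhibitor libraries than in both DMSO libraries. They were picked by their DMSO values, so this is a description. H3K27me3 after DMSO was above the library mean near Sall1 (2.28 and 3.35), Adgrl1 (2.67 and 2.76) and Pabpc4l (1.74 and 1.09). It was below that mean near Shisal2b (0.49 and 0.45) and Galnt15 (0.73 and 0.99).

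By transcription-coupled mark, the regions were split into 3 equal classes of untreated H3K36me3. The lowest, middle and highest classes had log2 changes of H3K36me2 relative to the library mean of -0.06, -0.10 and -0.13. The highest class had 1.2 and 1.22 times the H3K36me2 of the lowest after DMSO and 1.14 and 1.17 times after the inhibitor (exact permutation p = 0.33). Protein-coding genes were overlapped by 32.4%, 37.9% and 54.3% of the 3 classes.

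**Figure D5:**
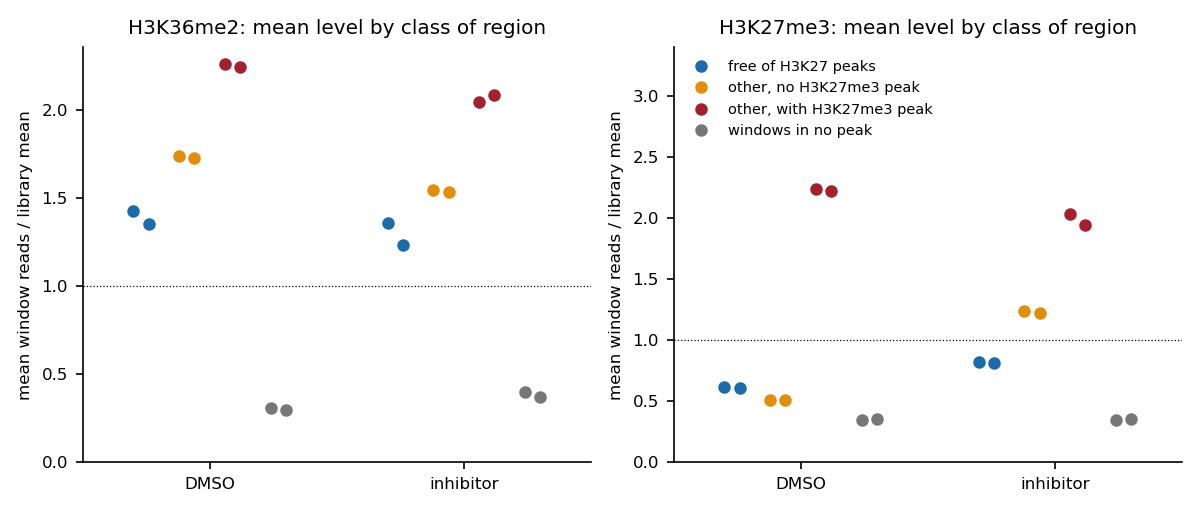
Mean H3K36me2 (left) and H3K27me3 (right) relative to the library mean (y axis, dotted line) after DMSO or the inhibitor, for the regions, the other H3K36me2 peaks without and with H3K27me3 peak sequence, and windows in no peak. Each point is 1 library. H3K36me2 of the regions stays above the library mean, and their H3K27me3 goes from 0.620 and 0.613 to 0.826 and 0.810.

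H3K27me3, the mark whose enzyme was inhibited, was far lower in the regions on the spike-in scale after treatment. It was 31.8 and 23.1 scaled reads per window after DMSO and 0.0792 and 0.0568 after the inhibitor, 404-fold lower, with no overlap between the groups (log2 change -8.66, exact permutation p = 0.33). limma called 36566 of the 36566 peaks tested lower (100%), and with them 1480 of the 1480 regions that could be tested. The other 869 regions had a level of 0, over all their overlapping windows, in at least 1 library and were not tested. They were shorter, with a median of 3500 bp against 5500 bp. The inhibitor libraries held 0.751 and 1.34 M reads, against 16.4 and 21.2 M reads after DMSO, and a region had a median of 1 and 2 window reads in them. On the spike-in scale 1 read counted 5.943 and 3.37 in the DMSO libraries and 0.242 and 0.099 in the inhibitor libraries. The calls on that scale thus follow largely from these factors and are not separate evidence for each region.

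The reads left after the inhibitor were spread differently. Whether they came from the mark or from background was not tested, and no input library was used. Relative to the library mean, H3K27me3 over the regions was 0.620 and 0.613 after DMSO and 0.826 and 0.810 after the inhibitor, a log2 change of 0.41 (pairs from 0.39 to 0.43, exact permutation p = 0.33). Other peaks without H3K27me3 peak sequence went from 0.511 and 0.508 to 1.24 and 1.22, and other peaks with it from 2.24 and 2.22 to 2.04 and 1.95. The regions had 1.21 times the level of other peaks without H3K27me3 peak sequence in each DMSO library and 0.666 and 0.663 times in the inhibitor libraries (exact permutation p = 0.33). The order of these 2 classes was thus opposite in the 2 treatments, in every library.

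Single regions were hardly measurable after the inhibitor. Over the 2349, Spearman's rho between the 2 replicates was 0.861 for H3K27me3 after DMSO and 0.104 after the inhibitor, where 735 and 329 regions had no read, and 140 none in either library, over windows that do not overlap (not the same windows as behind the levels). Both inhibitor libraries were above both DMSO libraries in 696 regions (29.6%) and below in 429 (18.3%), against 35.0% and 30.7% of all peaks. Relative to the library mean, limma called 5517 of 36566 peaks higher (15.1%) and 1118 lower (3.06%), and among the regions 205 higher and 8 lower of 1480. These calls are not firm: without the filter on peaks at 0 they were 34 higher and 100 lower of the 2349 regions, and 976 higher and 340 lower of all 40801 peaks, and leaving out either DMSO library left 0. In simulated data this fit recovered 0 of 156 peaks changed 4-fold and 117 of 133 changed 16-fold. Far fewer peaks were changed there than were called in the real libraries, and the spread was assumed. These rates may therefore not hold for the real fit.

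In the 22 regions of low H3K27me2, relative H3K27me3 lay far apart in the 2 treatments. Its median was 0.0938 and 0.0809 times the library mean after DMSO and 1.17 and 0.682 after the inhibitor, on 83 and 103 window reads in all 22 together. The DMSO libraries held 142 and 152 window reads there. The mean over the 22 was 11.2-fold higher relative to the library mean (log2 change 3.48), and on the spike-in scale 47.9-fold lower (log2 change -5.58). Both folds thus rest largely on the library mean or the spike-in factor, as the reads themselves differed far less. Whether these few reads were background was not tested, and no input library was used. In the 235 other peaks under the same limit, whose median H3K27me2 was higher at 0.356 and 0.381, the median H3K27me3 was 0.174 and 0.161 after DMSO and 1.78 and 2.04 after the inhibitor. Those peaks were mixed: in each DMSO library 70 of the 235 (29.8%) were above the library mean for H3K27me3, against 0 of the 22.

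Their H3K36me2 lay close together in both treatments. Over the same 22, H3K36me2 had medians of 1.46 and 1.44 after DMSO and 1.44 and 1.48 after the inhibitor, with a log2 change of the mean of -0.04. The transfer RNA region was named for its many inhibitor reads, 13 and 14, so its values are a description. On the spike-in scale its H3K27me3 was lower after the inhibitor. Its relative H3K27me3 went from 0.09 and 0.05 to 2.26 and 1.22 times the library mean. Its H3K36me2 went from 1.48 and 1.33 to 1.47 and 1.22. By Dppa5a, H3K27me3 went from 0.13 and 0.24 to 1.51 and 1.13, and H3K36me2 from 1.72 and 1.94 to 1.93 and 1.89. The longest region of all, in Gm39032, had 16 and 12 inhibitor reads and the one in Hebp1, a heme-binding protein, 6 and 20.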

How the data were processed

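Chromatin immunoprecipitation sequencing gave 18 deposited tracks and 4 peak lists (H3K36me2 and the 3 H3K27 marks). The tracks hold log2 values in 1 kb windows every 500 bp, which the authors made as log2 of 1 plus reads times 1 factor per library (from the values). Whole reads were recovered from the steps. The deposited peak lists give a score per peak, on a scale not stated, and hold peaks replicated in 2 untreated libraries. The submitters' processing notes name Trim Galore 0.4.2, Bowtie2 2.2.6.2, SICER, mm10 and dm3. How the spike-in factor was made is not given in the sources used here. Estimated depths were 0.751 to 84.6 M reads, which limits H3K27me3 after the inhibitor.

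Regions were averaged over their windows, divided by the library mean or kept on the deposited scale, and compared by exact permutation or by limma 3.58.1 on log2 values (0.05 added on the relative scale, 1 on the spike-in scale) over all peaks above 0 in all 4 libraries, with Benjamini-Hochberg adjustment. The fit relative to the library mean was tested on simulated data with an assumed spread. Other references, filters, added values, the replicate block and leaving out libraries were tried. Named regions were the 5 longest, the 5 highest for DMSO H3K36me2, the 5 highest and 5 lowest for H3K36me3, the 5 largest rises and falls of H3K36me2 among regions at or above the median DMSO level and moved alike in all 4 library pairs, and the 3 with the most H3K27me3 reads after the inhibitor. The regions and gene lists were chosen with earlier results of these data known. Gene positions came from RefSeq on GRCm38.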

Additional observations from a re-analysis of the deposited data

How the results depend on the processing

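Over 11 results, 114 alternatives were computed, and those that changed a call, a sign or a value most are given here. Some could change nothing: 0 regions exceeded 10 times the library mean in all 5 marks, the filter removed none of the 40801 H3K36me2 peaks, and the replicate block keeps mean changes by construction. H3K36me2 calls on the spike-in scale were 0, and with the replicate number as a block 14 regions, all higher, among 279 of all peaks (263 higher). The regions' median change there was 0.10, and -0.24 without the second DMSO library, -0.38 without the first inhibitor library and -0.03 with median centring. Relative H3K36me2 calls were 0, against 2347 regions lower (40744 of all peaks) with the median of windows in no peak as reference (median log2 change -0.89). For H3K27me3 on the spike-in scale, 1480 regions were lower, 2349 with no filter (40776 of all peaks), and median centring, which by construction puts about as many peaks on each side of 0, called 1080 (29482 of all peaks), 1033 of them higher. The fitted falls there depend on the value added before the log: the regions' median was -4.64 with 1 added, -6.30 with an added value 4 times smaller, -2.89 with one 4 times larger (1479 regions and 36540 peaks called) and -8.25 with limma-voom. Relative H3K27me3 calls were 213 regions of 6635 peaks in all, 134 of 1316 with no filter (100 regions lower, 976 peaks higher), 458 of 13915 with limma-voom and 166 of 4652 with the block. With 1 library left out they ranged from 0 to 835: 0 without either DMSO library, 756 of 19863 without the first inhibitor library and 835 of 19719 without the second. The mean H3K36me2 change ran from -0.38 to 0.59 on the spike-in scale with 1 library left out, at -0.24 without the second DMSO library and -0.38 without the first inhibitor library, and from -0.17 to -0.03 on the relative scale. The change in the ratio to other peaks was -0.026 with medians (exact permutation p = 1) and -0.048 to 0.11 with 1 library left out. With 1 library left out the mean H3K27me3 change was -8.90 to -8.42 on the spike-in scale and 0.39 to 0.42 on the relative scale, where it was 0.29 with medians and 0.43 for regions of 5000 bp or longer. The H3K36me3 ratio was 0.639 with medians and 0.405 and 0.465 in single libraries. The gene share was 38.6% when at least 50% of a region had to overlap and 45.7% for regions of 5000 bp or longer. A relative H3K27me3 fit with the median of windows in no peak was not run, because that median is 0 after the inhibitor. With 1 library left out, the lone library of an arm is assumed to vary like the others. Replicate numbers are shared by the DMSO and inhibitor libraries, but nothing says that they pair the samples. The deviations of same-numbered libraries had a correlation of 0.446 for H3K36me2 and 0.0210 for H3K27me3 over all peaks. Over the regions the correlations were 0.210 and 0.0301. The cause of each change was not tested. Depth limits H3K27me3 after the inhibitor, and no input library was used.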

Other observations

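The X chromosome, which the choice of regions left out, had 117 H3K36me2 peaks without H3K27 peak sequence among its 192 of 2000 bp or longer (60.9%, against 5.89% on the autosomes; no test was made). Their H3K36me2 was 1.32 and 1.26 times the library mean after DMSO and 1.15 and 1.11 after the inhibitor, with no overlap. Untreated H3K36me3 was 0.718 and 0.690 and untreated H3K27me3 0.475 and 0.449. The library mean is over the autosomes, and E14 is a male line with a single X, so levels on X are not directly comparable with autosomal ones.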
